A study of Mus musculus with 12 samples.

Results

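The chloroquine effect was taken over all 12 of 12 RNA-seq libraries of the series, as 6 libraries with chloroquine against 6 without it. Each side held 3 libraries with ADI-PEG20 and 3 without, and ADI-PEG20 was a covariate of the fit. The groups, of 3 libraries each, were tumors with no treatment, chloroquine alone, ADI-PEG20 alone, and ADI-PEG20 plus chloroquine. Every library came from a tumor of 1 murine sarcoma line, BVMA01R, of genotype Myf5-Cre;p53-/-;Ass1-/-, and the labels give the sex as female and the strain as C57BL/6J. All groups, controls included, therefore share the loss of p53 and Ass1 and a Cre driven by Myf5, a regulator of muscle precursors, and nothing here extends beyond 1 line. The labels give no dose, treatment time or age, nor whether any 2 libraries are from different animals, so p-values measure only the spread between these samples, which may be technical.

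Chloroquine is a weak base that collects in lysosomes, raises their pH and blocks the last step of autophagy, in which a cell digests its own parts and reuses the amino acids. ADI-PEG20 is a pegylated arginine deiminase that removes arginine from outside the cell, and a cell without argininosuccinate synthase (Ass1) cannot rebuild it from citrulline. When amino acids run short, the transcription factor ATF4 of the integrated stress response turns on genes that make, import and load amino acids. The question here was which genes were higher, or lower, with chloroquine whether or not arginine was being depleted.

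Libraries held 15501998 to 28410940 reads. Ass1 was at 2.78 to 4.24 and Trp53 at 3.71 to 4.75 log2 CPM, which is log2 of the read count scaled by library size, over the 12 libraries, and a count per gene does not show which exons were lost. With chloroquine Ass1 differed by 0.33 (standard error, SE, 0.22), or 0.18 without chloroquine replicate 3 and 0.21 without untreated replicate 1, and Trp53 by -0.01 (SE 0.17) on the log2 scale. Of 19 genes of myogenic or sarcoma identity 17 were measured, and Myf5 averaged 4.84, Myod1 3.20 and the mesenchymal filament gene Vim 11.3 log2 CPM. A few libraries stood apart. ADI-PEG20 replicate 1 had the most genes with no reads (120, against 7 to 43) and the most skeletal muscle transcript (mean 6.75 log2 CPM over 21 markers), with untreated replicate 1 next at 6.12 and ADI-PEG20 plus chloroquine replicate 1 lowest at 1.30. The noncoding transcript Gm26917 took 22.8% of reads in ADI-PEG20 replicate 1 and 16.4% in untreated replicate 2, against 5.09% to 9.86% in the rest.

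Some libraries also differed along whole chromosomes. Over 493 genes of chromosome 6 with a mean log2 CPM above 3, untreated replicate 2 was 0.30 below each gene's mean over the 12 libraries, as a median, while ADI-PEG20 replicate 2 was at -0.07. Over 483 such genes of chromosome 10, untreated replicate 1 was 0.40 above it. Smaller deviations included -0.28 for ADI-PEG20 replicate 1 on chromosome X and 0.24 for untreated replicate 1 on chromosome 9. These libraries are all without chloroquine, and values without untreated replicate 2 (chromosome 6) or untreated replicate 1 (chromosome 10) are given below for genes of those chromosomes. Their part in the results was otherwise not tested.

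**Figure D1:**
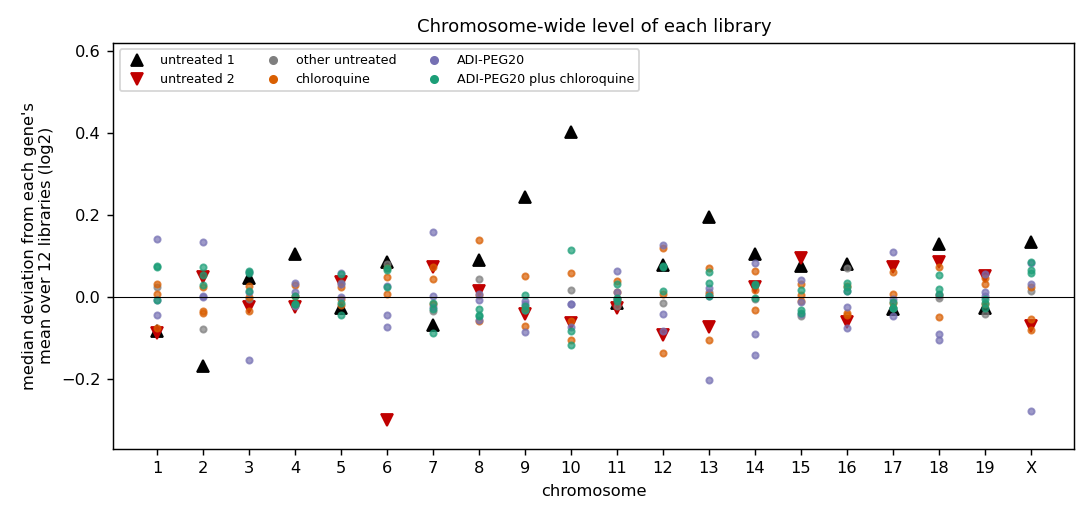
Median deviation (log2, y axis) of each library from the genes' means over 12 libraries, by chromosome (x axis), over genes with a mean log2 CPM above 3; each point is 1 library. Untreated replicate 2 sits at -0.30 on chromosome 6 and untreated replicate 1 at 0.40 on chromosome 10.

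No gene passed an adjusted p of 0.05 for chloroquine over both states (0 of 16335 genes, 0%, limma with Benjamini-Hochberg adjustment), and the lowest adjusted p of any gene was 0.9998. At an unadjusted p under 0.05, 153 genes were higher with chloroquine (0.937% of those tested) and 203 were lower (1.24%), together 2.18%. The lowest unadjusted p was 0.000539. All genes and lists below are therefore given as measured differences, not as changes that passed. The tests within each state also gave 0 genes at an adjusted p of 0.05: the unadjusted counts were 555 without ADI-PEG20 (3.4%) and 559 with it (3.42%), and the lowest adjusted p-values were 0.999 and 0.894. The test of whether the chloroquine effect differed between the states gave 0 genes as well, with 696 at an unadjusted p under 0.05 (4.26%) and a lowest adjusted p of 0.82. With no real difference, a p under 0.05 is met by a share of about 0.05 of genes. All of these unadjusted shares were smaller than that.

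The 2 states shared little of the chloroquine difference. The estimated difference had the same sign without and with ADI-PEG20 for 7225 genes (44.2%), of which 3646 were higher and 3579 lower with chloroquine, while 9110 genes (55.8%) had opposite signs. Over all genes the 2 differences, which share no library, had a Pearson r of -0.04 and a Spearman rho of -0.13, given as a description since genes are not independent replicates. Over the 10172 genes with a mean log2 CPM above 3, 41.8% kept 1 sign and r was -0.23. The same-sign share was 51.5% without untreated replicate 1 and 38.2% without untreated replicate 2. Among the 356 genes at an unadjusted p under 0.05, 355 had 1 sign in both states, which the pooled test itself favors; the exception, named after its values were seen, was the cone arrestin gene Arr3.

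A stricter view asks for no overlap between the 3 and 3 libraries. This held for 7.41% of genes without ADI-PEG20 and 9.16% with it. In both states and in 1 direction it held for 11 genes that were higher (0.0673%) and 18 that were lower (0.11%) with chloroquine, while 83 genes (0.508%) had their libraries apart in both states but in opposite directions. Libraries of 3 and 3 can also lie apart by chance. These counts were not compared with the numbers that chance gives.

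**Figure D2:**
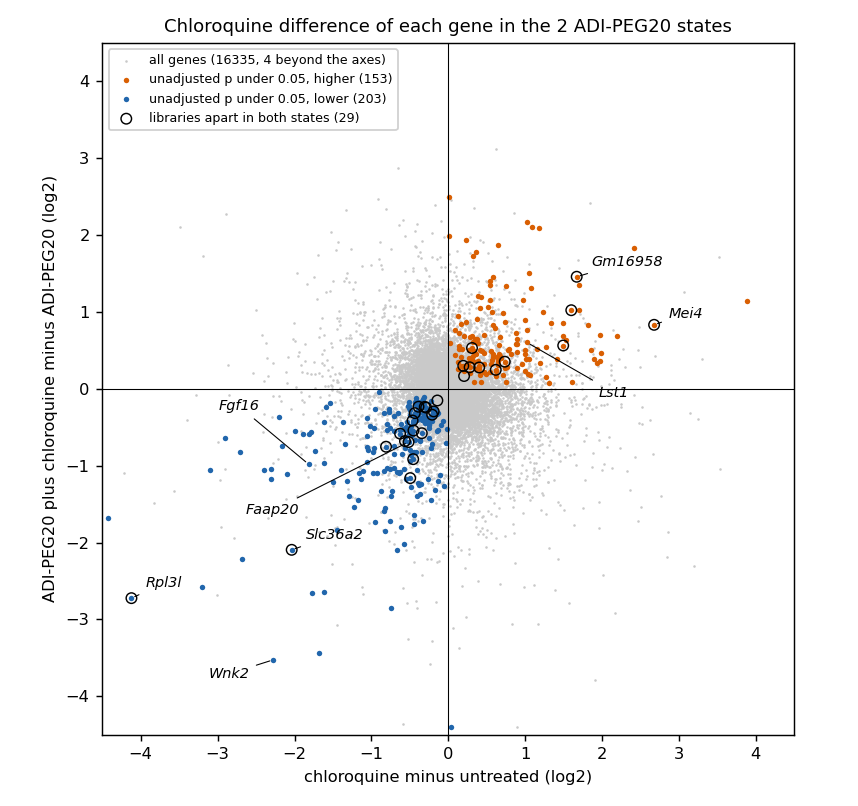
Difference with chloroquine for each gene without ADI-PEG20 (x axis, log2) and with it (y axis, log2); colored points are the 153 higher and 203 lower genes at an unadjusted p under 0.05 and circles the 29 genes whose libraries do not overlap in either state in 1 direction. The grey cloud of all genes has no slope upward (Pearson r -0.04), and most circles lie within 1 log2 unit of 0.

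Of the 12 higher genes with the smallest p, 3 encode enzymes that act on amino acids. They include Gars, which loads glycine onto its tRNA, and Gpt2, the mitochondrial alanine aminotransferase. The other is Bcat1, the cytosolic aminotransferase of leucine, isoleucine and valine. Of the targets of the integrated stress response, 21 of 27 measured were higher with chloroquine, with a median difference of 0.17, where 51.9% of all genes were higher and the median of all genes was 0.01. The median was 0.16 without ADI-PEG20 and 0.24 with it; 13 targets were higher in both states, against 22.3% of all genes, and 2 lower in both, against 21.9%. Those 2, named after their values were seen, were the transcription factors Ddit3 (-0.15) and Cebpb (-0.23). Of the 27 targets, 4 were higher at an unadjusted p under 0.05 and 0 were lower, beside 0.937% and 1.24% of all genes. A difference between the states at that level was found for 0 targets, beside 4.26% of all genes. By library, the mean of the 27 targets was 4.51, 5.18 and 4.98 log2 CPM untreated, 5.02, 4.99 and 5.12 with chloroquine, 5.20, 5.28 and 5.33 with ADI-PEG20, and 5.17, 5.67 and 5.57 with both. The groups overlapped in each state, and untreated replicate 1 was the lowest of the 12. Without it the list median was 0.11 with 18 of 27 higher, and without untreated replicate 2 it was 0.27 with 24 higher.

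The C/EBP-ATF element, which ATF4 binds together with a partner, was searched in RefSeq promoters (GRCm38.p6) over the 250 bases before each gene's start, as TGATGNAA or its reverse TTNCATCA, which are the same element on either strand. It stood in 3.91% of the promoters of 27025 genes and in 8 of the 24 stress targets with a promoter in the table (33.3%). The list was chosen as targets of the stress response that ATF4 drives, so this excess reflects that choice and does not bear on chloroquine. The 8 with the element had a median difference of 0.21 with chloroquine, 7 of them higher, and the 16 without it had a median of 0.11, 11 of them higher. None of those 8 had an unadjusted p under 0.05. Of the 4 targets at that level, Mthfd2, Psat1 and Aldh18a1 lacked the element, and Aldh1l2 had no promoter to search. Among genes outside the target list, it stood in 3 of the 12 tRNA synthetases with a promoter, Gars (0.33), Tars (0.16) and Aars (0.01), and in 2 of the 11 amino acid transporters, Slc7a11 (0.48) and Slc7a7 (-0.06). The 8 targets are shown, since their windows hold the element that the other 16 lack, together with Gars, the synthetase with the smallest p; the element is in capitals, on the gene's strand, 5′ to 3′.
Gars: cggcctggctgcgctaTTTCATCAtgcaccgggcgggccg
Asns: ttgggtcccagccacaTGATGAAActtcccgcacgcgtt
Vldlr: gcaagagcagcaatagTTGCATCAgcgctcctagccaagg
Pycr1: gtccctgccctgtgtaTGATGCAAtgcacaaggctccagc
Chac1: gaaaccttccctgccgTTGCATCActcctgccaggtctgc
Fgf21: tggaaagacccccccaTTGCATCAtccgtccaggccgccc
Nupr1: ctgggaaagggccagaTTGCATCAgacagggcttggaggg
Herpud1: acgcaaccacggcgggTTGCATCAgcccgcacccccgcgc
Atf3: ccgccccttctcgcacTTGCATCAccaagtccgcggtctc
The Gars window is chr6:55037955-55037994, with the element starting 30 bases before the gene's start, and that of Asns is chr6:7693210-7693248, 23 bases before it. Chloroquine differences of the 9 ran from 0.36 for Asns (SE 0.19; 0.35 without untreated replicate 2), the asparagine synthetase, and 0.36 for the lipoprotein receptor Vldlr (SE 0.21) to 0.02 for Herpud1, a factor of endoplasmic reticulum quality control, and -0.14 for the stress transcription factor Atf3 (SE 0.38). A match is a description of letters and does not show binding.

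Gars (ENSMUSG00000029777, chromosome 6, 55038007 to 55079500, GRCm38) was at 7.30, 7.18 and 7.62 log2 CPM in the untreated libraries and at 7.79, 7.65 and 7.86 with chloroquine. With ADI-PEG20 it was at 7.54, 7.57 and 7.72, and with both at 7.70, 7.98 and 7.92. Each chloroquine group was above its control group without overlap when ADI-PEG20 was absent, and 1 of the 3 libraries with both fell within the ADI-PEG20 range. The difference was 0.33 (SE 0.10, unadjusted p = 0.00544), made of 0.40 without ADI-PEG20 and 0.25 with it. Gars lies on chromosome 6: without untreated replicate 2 the difference was 0.28 (unadjusted p = 0.0148), and without untreated replicates 1 and 2 it was 0.22 (unadjusted p = 0.0558). A list of 20 cytosolic tRNA synthetases, written after the value of Gars was seen, had 18 members higher and a median of 0.08, with 5 higher in both states; its median was -0.02 without ADI-PEG20 and 0.19 with it, and it was 0.01 with 11 of 20 higher when ADI-PEG20 replicate 1 was left out and 0.04 without ADI-PEG20 plus chloroquine replicate 2.

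The members of the stress list with the smallest p were enzymes of folate one-carbon and serine metabolism. Mthfd2, a mitochondrial folate enzyme (ENSMUSG00000005667, chromosome 6, 83305691 to 83325908), was at 5.84, 5.27 and 6.01 log2 CPM untreated, 6.26, 6.06 and 5.84 with chloroquine, 5.99, 6.37 and 6.03 with ADI-PEG20, and 6.32, 6.77 and 6.69 with both. It differed by 0.40 (SE 0.14, unadjusted p = 0.0124), and by 0.31 without untreated replicate 2, the lowest library for this gene. Aldh1l2, which oxidizes formyl-folate in mitochondria, ranged from 4.90 to 6.63 (median 6.09) without chloroquine and from 5.70 to 7.18 (median 6.27) with it. The overlap was wide, and the difference of 0.47 (SE 0.20, unadjusted p = 0.0362) was 0.22 when untreated replicates 1 and 2 were both left out. Psat1, the aminotransferase of serine synthesis, differed by 0.29 (SE 0.13, unadjusted p = 0.0424), with medians of 6.25 without and 6.67 with chloroquine; without ADI-PEG20 replicate 1 it differed by 0.19. Aldh18a1, which opens proline synthesis, differed by 0.19 (SE 0.09, unadjusted p = 0.0495), with its 3 libraries apart only where ADI-PEG20 was given.

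Outside the list, Gpt2 (ENSMUSG00000031700, chromosome 8, 85492576 to 85527560) was at 4.79, 4.69 and 5.42 log2 CPM untreated and 6.06, 5.57 and 5.55 with chloroquine, without overlap. With ADI-PEG20 it was at 6.08, 5.82 and 5.85, and with both at 5.85, 6.51 and 6.25, where the ranges overlapped. The pooled difference was 0.52 (SE 0.17, unadjusted p = 0.00684), from 0.76 without ADI-PEG20 and 0.29 with it, and it was 0.29 without untreated replicates 1 and 2. Bcat1, on chromosome 6, ran from 5.29 to 5.78 (median 5.46) without chloroquine and from 5.28 to 6.37 (median 6.04) with it. Its difference of 0.45 (SE 0.14, unadjusted p = 0.00558) stayed at 0.45 without untreated replicate 2.

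Amino acid transporters were also mostly higher. Of 16 measured, 13 were higher with chloroquine with a median of 0.20 (0.32 without ADI-PEG20, 0.09 with it), 10 were higher in both states and 0 were lower in both. Without untreated replicates 1 and 2 the median was 0.11 with 11 higher. Only the glycine transporter Slc6a9 had an unadjusted p under 0.05. It was at 3.30, 3.46 and 3.88 log2 CPM untreated, 4.25, 3.76 and 4.05 with chloroquine, 4.15, 4.29 and 4.65 with ADI-PEG20, and 4.34, 4.72 and 4.98 with both. The ranges overlapped in each state, and the difference was 0.39 (SE 0.16, unadjusted p = 0.025), or 0.26 without untreated replicates 1 and 2. Slc7a1, a carrier of arginine and lysine, differed by 0.22 (SE 0.10, unadjusted p = 0.0543), and the cystine and glutamate exchanger Slc7a11 by 0.48 (SE 0.29, unadjusted p = 0.12), or 0.23 without ADI-PEG20 replicate 1.

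**Figure D3:**
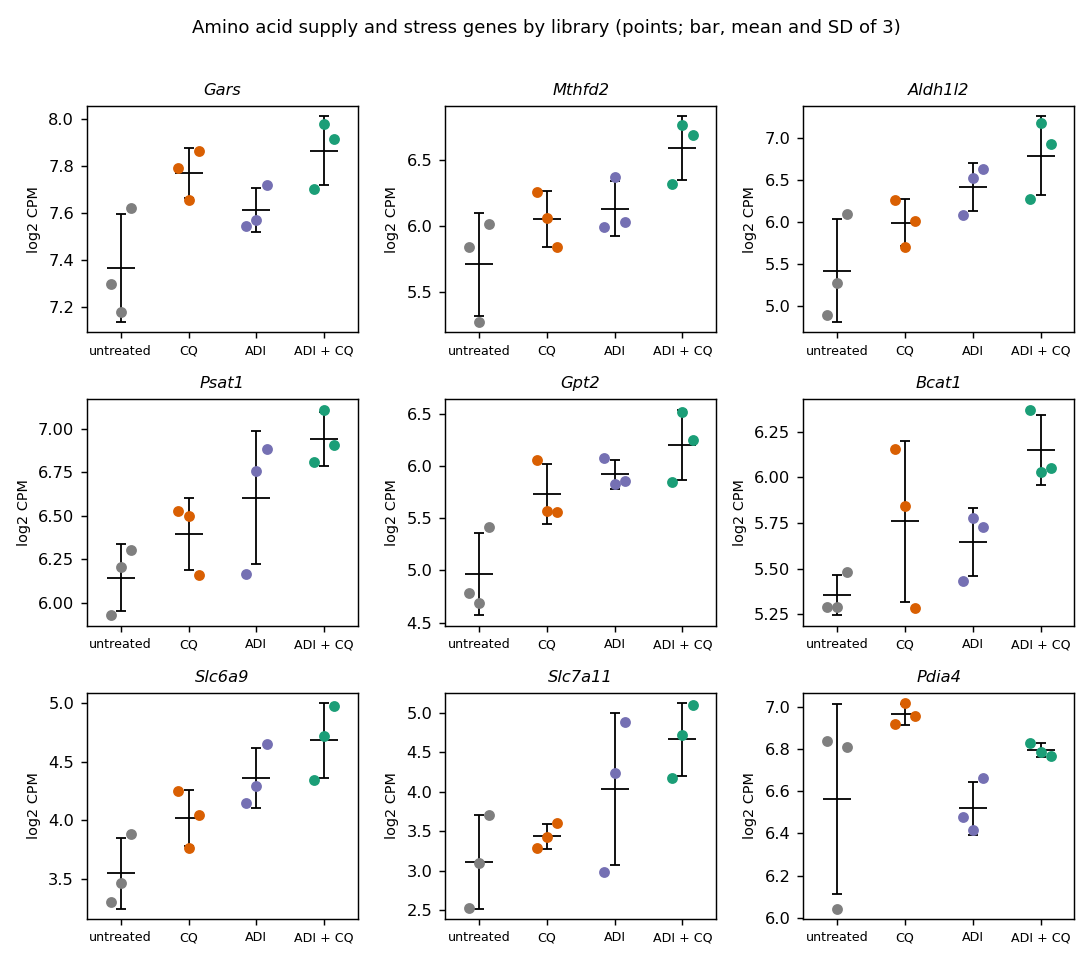
Log2 CPM (y axis) in the 3 libraries of each group (x axis, CQ for chloroquine and ADI for ADI-PEG20), with the mean and SD of 3. The 9 genes are of amino acid and folate metabolism, amino acid transport, tRNA loading and stress. Each gene's mean is higher with chloroquine in both states, as for Gars (0.40 and 0.25), while ranges overlap in at least 1 state for each gene other than Pdia4.

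Of the chaperones of the endoplasmic reticulum, 13 of 17 were higher, with a median of 0.10 (0.08 without and 0.11 with ADI-PEG20), and 9 were higher in both states. The median was 0.06 with 11 higher without untreated replicate 2, and 0.04 with 14 higher without ADI-PEG20 replicate 1. Over the alternatives tried it ran from 0.002 to 0.13. Pdia4, a disulfide isomerase (ENSMUSG00000025823, chromosome 6, 47796141 to 47813430), was 1 of the 11 genes with libraries apart in both states. It was at 6.84, 6.04 and 6.81 log2 CPM untreated and 6.92, 7.02 and 6.96 with chloroquine, then 6.48, 6.42 and 6.66 with ADI-PEG20 and 6.83, 6.79 and 6.77 with both. Untreated replicate 2 was far below the rest: the difference was 0.34 (SE 0.13, unadjusted p = 0.0182) with it and 0.22 (unadjusted p = 0.0272) without it. Dnajb9, a cochaperone of BiP, differed by 0.39 (SE 0.26), and by 0.19 without untreated replicate 2.

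Chromosome 6 held 26 of the 153 higher genes (17.0%) but 5.12% of the genes tested, and 5 of the 203 lower ones. Gars, Bcat1, Mthfd2, Pdia4 and Asns all lie there. Left out of the fit, untreated replicate 2 took that count from 26 to 17, ADI-PEG20 plus chloroquine replicate 1 took it to 14, and untreated replicates 1 and 3 took it to 48 and 40. Without the 2 stress targets on chromosome 6 (Mthfd2 and Asns), 19 of 25 targets were higher, with a median of 0.13. Chromosome 10 held 21 of the 203 lower genes (10.3%, against 4.70% of genes tested), and 17 without untreated replicate 1; the count was 33 without untreated replicate 3, 37 without ADI-PEG20 replicate 3 and 41 without ADI-PEG20 plus chloroquine replicate 2. The adjacent imprinted genes Sgce, a sarcoglycan, and Peg10, a retrotransposon-derived gene, lie on chromosome 6 as well and differed by 0.52 (SE 0.17, unadjusted p = 0.00801) and 0.48 (SE 0.18, unadjusted p = 0.0195). Without untreated replicate 2 they differed by 0.40 and 0.53, and without untreated replicates 1 and 2 by 0.29 and 0.36 (unadjusted p = 0.0777 and 0.0656). The list of 16 imprinted growth genes had medians of 0.46 without ADI-PEG20 and -0.06 with it, and 0.28 over both, where each of 4 single libraries left out took it to between 0.15 (chloroquine replicate 1) and 0.18 (untreated replicate 1). The lowest median over both states among the alternatives tried was 0.03.

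Genes of the lysosome and of autophagy, the compartment and pathway that chloroquine acts on, showed small differences. Of 52 lysosomal hydrolases and membrane proteins, 35 were higher, with a median of 0.08 and a range of -0.42 to 0.33; 18 were higher and 5 lower in both states, and 0 had an unadjusted p under 0.05. The median was 0.04 without untreated replicate 2, and 0.05 without ADI-PEG20 replicate 2 or ADI-PEG20 plus chloroquine replicate 3. Its lowest value over the alternatives tried was 0.02. Ctsc, a protease that activates granule proteases, ranged from 6.79 to 7.82 log2 CPM without chloroquine (median 7.15) and from 6.87 to 7.89 with it (median 7.48), a difference of 0.22 (SE 0.13), or 0.14 without ADI-PEG20 replicate 1. Ppt1, a thioesterase that removes palmitate from proteins, differed by 0.24 (SE 0.13), from a median of 5.42 to one of 5.68. The ranges of both overlapped almost wholly. The abundant protease Ctsd differed by 0.07 (SE 0.14) and Ctsb by -0.02 (SE 0.11), while the membrane protein Lamp1 was at -0.00 (SE 0.09).

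The autophagy list had 19 of 40 genes higher and a median of -0.01, with 5 higher and 10 lower in both states. Sqstm1, the cargo receptor p62, differed by -0.06 (SE 0.14), and Map1lc3b, which coats autophagosomes, by -0.06 (SE 0.11). Gabarapl1, of the same family, was lower without ADI-PEG20 (-0.22) and higher with it (0.30). Of the regulators of lysosomal genes, Tfeb was at 0.42 without and -0.47 with ADI-PEG20, and Mitf at -0.11 and 0.54. The 17 subunits of the vacuolar proton pump had a median of -0.11 without and 0.18 with ADI-PEG20, and the 25 genes of cholesterol synthesis and uptake went from -0.12 to 0.16. Opposite medians in the states were not tested as such. A difference between states at an unadjusted p under 0.05 was found for 2 of the 17 pump genes and 0 of the 25 cholesterol genes, beside 4.26% of all genes.

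The lower genes included 2 that act with clathrin. Hip1r, which ties clathrin to actin, differed by -0.52 (SE 0.16, unadjusted p = 0.00701), and Cltb, a clathrin light chain, by -0.32 (SE 0.15, unadjusted p = 0.0496), or -0.13 without untreated replicate 2 and ADI-PEG20 replicate 1. The list they were viewed against, 24 genes of endosome traffic and endocytosis, had 12 higher and 12 lower. On the uptake side, the endocytic receptor Lrp2 (megalin) was higher: it was at 5.37, 5.33 and 5.31 log2 CPM untreated, 5.72, 5.49 and 5.79 with chloroquine, 5.28, 5.70 and 5.52 with ADI-PEG20, and 5.99, 5.65 and 5.91 with both. Libraries were apart without ADI-PEG20 and overlapped with it, and the difference was 0.34 (SE 0.10, unadjusted p = 0.00604).

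Markers of macrophages and monocytes were higher in 16 of 20 cases, with a median of 0.12 (0.11 without and 0.14 with ADI-PEG20). Of the 20, 13 were higher and 2 lower in both states, and 0 had an unadjusted p under 0.05. Lst1 and Cd300ld, described below, are not among these markers. The median was 0.06 with 12 higher without ADI-PEG20 replicate 2, 0.07 without untreated replicate 1 and 0.08 without ADI-PEG20 plus chloroquine replicate 1. In bulk tumor RNA, more cells of a type and more RNA per cell cannot be told apart. The leading higher gene of all, Lst1, a transcript of myeloid and lymphoid cells (ENSMUSG00000073412, chromosome 17, 35185095 to 35188439), was at 0.58, 1.16 and 1.33 log2 CPM untreated and 2.07, 1.78 and 2.30 with chloroquine, without overlap. With ADI-PEG20 it was at 2.004, 2.23 and 2.67, and with both at 3.03, 2.38 and 3.30, where ranges overlapped. The difference was 0.81 (SE 0.23, unadjusted p = 0.00336), resting on 36 to 216 reads per library. Cd300ld, a receptor of myeloid cells (chromosome 11, 114982274 to 114989922), was apart in both states: 1.92, 2.21 and 1.74 untreated, 2.47, 3.02 and 2.58 with chloroquine, 2.62, 2.73 and 2.78 with ADI-PEG20, and 3.34, 2.94 and 2.90 with both. The difference for it was 0.54 (SE 0.17, unadjusted p = 0.00744), and 0.58 without untreated replicate 2. Adgre1, which encodes the macrophage marker F4/80, differed by 0.30 (SE 0.15, unadjusted p = 0.0643), and Cx3cr1, a chemokine receptor of monocyte-derived cells, by 0.32 (SE 0.17, unadjusted p = 0.0827), or 0.18 without ADI-PEG20 replicate 1.

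Several other immune lists had medians of opposite sign in the 2 states, a difference that was not tested for the lists. All 31 genes of the type I interferon response were higher over both states together, with a median of 0.32, but the medians were 0.64 without ADI-PEG20 and -0.05 with it, and 8 of the 31 were higher in both. Of the 31, 0 had an unadjusted p under 0.05 over both states. The median over both states was 0.17 without untreated replicate 2, 0.18 without chloroquine replicate 3 and 0.51 without ADI-PEG20 plus chloroquine replicate 2. Over the alternatives tried it ran from -0.03 to 0.51. T cell markers went from 0.80 to -0.43, and genes of the interferon gamma response and antigen presentation from 0.63 to -0.23; without chloroquine replicate 3 the medians over both states turned from 0.16 to -0.06 and from 0.20 to -0.01. A difference between the states reached an unadjusted p under 0.05 for 2 of 31 type I interferon genes, 3 of 29 interferon gamma genes and 1 of 19 T cell genes, beside 4.26% of all genes. The neutrophil collagenase Mmp8 was higher in both states, by 0.95 over both (SE 0.38, unadjusted p = 0.026) and by 0.62 without ADI-PEG20 replicate 1, while the neutrophil list as a whole went from -0.28 to 0.38.

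**Figure D4:**
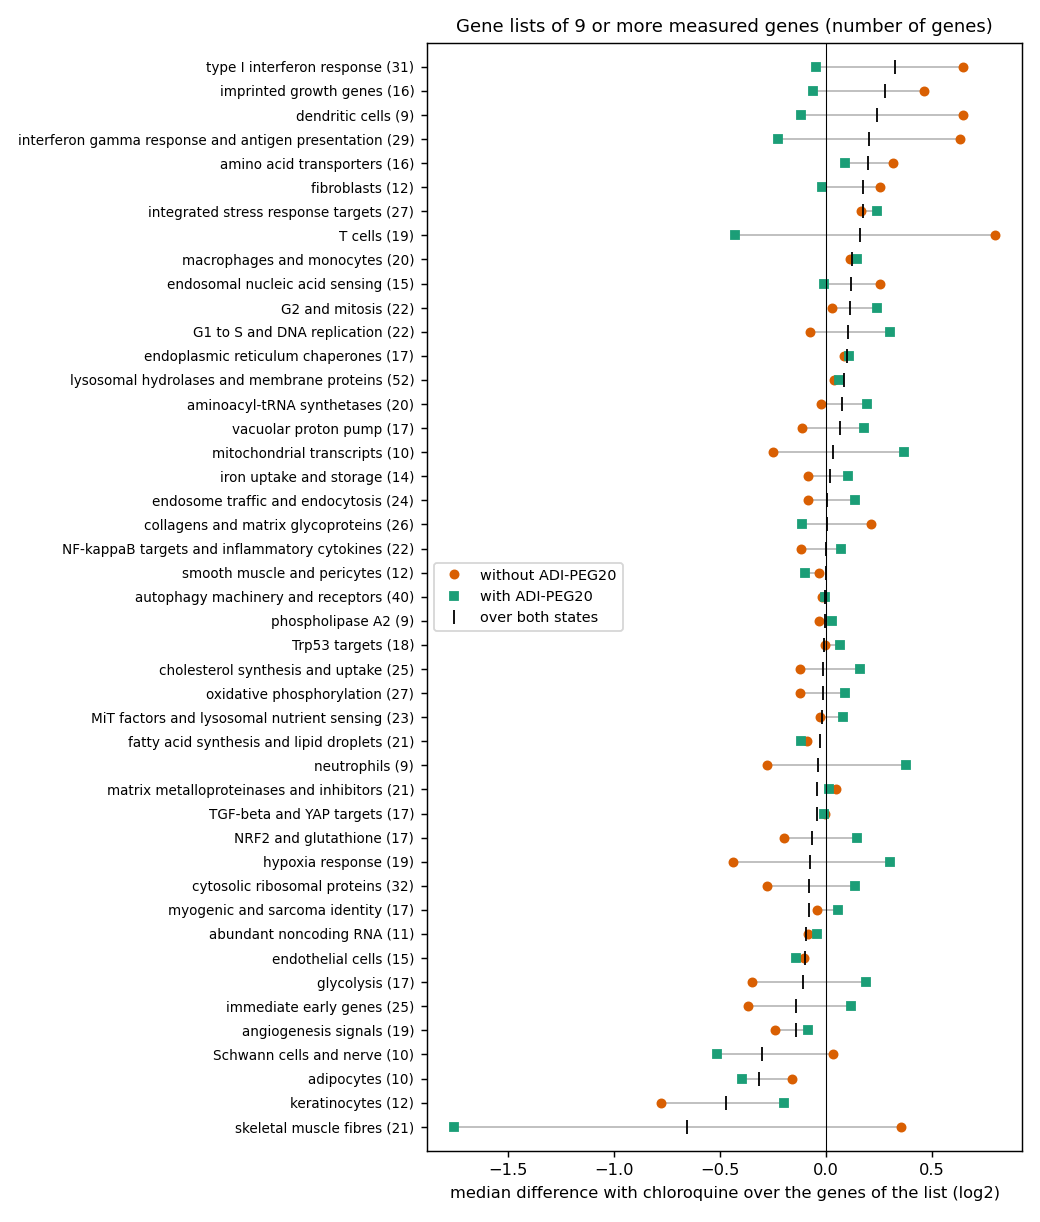
Median difference with chloroquine (x axis, log2) over the measured genes of each list (y axis, number of genes in brackets), without ADI-PEG20 (circles), with it (squares) and over both states (ticks). Stress response targets (0.16 and 0.24), macrophages (0.11 and 0.14) and chaperones (0.08 and 0.11) lie on 1 side of 0, whereas T cells (0.80 and -0.43) and skeletal muscle (0.36 and -1.76) cross it.

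On the lower side, 2 genes of DNA repair had libraries apart in both states. Faap20, a partner of the Fanconi anemia core complex (ENSMUSG00000073684, chromosome 4, 155249802 to 155256687), had the smallest p of all genes. It was at 3.77, 3.79 and 3.81 log2 CPM untreated, 3.28, 3.38 and 3.16 with chloroquine, 4.01, 3.55 and 3.39 with ADI-PEG20, and 3.01, 2.90 and 2.97 with both. All 6 libraries with chloroquine lay below all 6 without, the closest pair at 3.38 and 3.39. The difference was -0.60 (SE 0.14, unadjusted p = 0.000539), and it ran from -0.65 to -0.51 over the alternatives tried. Xpa, which verifies damage in nucleotide excision repair (ENSMUSG00000028329, chromosome 4, 46155347 to 46196311), ranged from 3.42 to 3.87 (median 3.61) without and from 3.05 to 3.35 (median 3.19) with chloroquine. It too had no overlap over the 6 and 6 libraries, and differed by -0.44 (SE 0.13, unadjusted p = 0.00537). How many of all genes had no overlap over 6 and 6 libraries was not counted. Genes were named for a small p or for libraries apart in both states. The lack of overlap therefore adds no support, here or for genes below. Another repair gene went the other way: Dclre1c, the nuclease Artemis of end joining, was higher by 0.37 (SE 0.12, unadjusted p = 0.00734).

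Signaling genes with libraries apart in both states included Cnksr3, a scaffold of kinase signaling (ENSMUSG00000015202, chromosome 10, 7119063 to 7212237). It was at 5.30, 5.80 and 5.18 log2 CPM untreated, 4.91, 4.97 and 4.53 with chloroquine, 5.26, 4.65 and 4.72 with ADI-PEG20, and 4.06, 4.57 and 4.24 with both. Its difference was -0.61 (SE 0.15, unadjusted p = 0.00144), -0.63 without untreated replicate 1, and -0.42 without untreated replicate 2 and ADI-PEG20 replicate 1. Azi2, an adaptor of the kinase TBK1, ran from 5.63 to 5.91 without and 5.30 to 5.61 with chloroquine, with no overlap over 6 and 6 libraries, and differed by -0.27 (SE 0.09, unadjusted p = 0.0133). It lies on chromosome 9, and its difference was -0.24 without untreated replicate 1. Tab1, a partner of the kinase TAK1, differed by -0.27 (SE 0.11, unadjusted p = 0.0282), or by -0.18 without untreated replicate 2 and ADI-PEG20 replicate 1. Gnao1, a G protein subunit, differed by -0.36 (SE 0.12, unadjusted p = 0.00727), with overlap where ADI-PEG20 was absent. With library quality weights its difference was -0.29.

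The other 4 genes among the 12 with the smallest p in each direction had libraries that overlapped in at least 1 state. Cdh2, which encodes N-cadherin, an adhesion protein of mesenchymal and neural cells, was at 6.00, 6.03 and 6.61 log2 CPM untreated, 7.15, 6.97 and 6.72 with chloroquine, 6.24, 6.39 and 5.80 with ADI-PEG20, and 6.66, 6.15 and 6.44 with both. It was apart without ADI-PEG20 and overlapped with it, and differed by 0.50 (SE 0.16, unadjusted p = 0.00618), or by 0.29 without untreated replicates 1 and 2 (unadjusted p = 0.0725). Klhl30 differed by -0.62 (SE 0.18, unadjusted p = 0.00464) with overlap in both states. Gm49322, on chromosome 10, differed by -0.52 (SE 0.17, unadjusted p = 0.00715; -0.52 without untreated replicate 1), and Itgb2l, an integrin subunit, by -0.75 (SE 0.24, unadjusted p = 0.00736), both apart only without ADI-PEG20.

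Of the remaining genes apart in both states, Coasy, the last enzyme of coenzyme A synthesis, was at 4.32 to 4.52 log2 CPM without and 4.55 to 4.96 with chloroquine, again without overlap over 6 and 6, a difference of 0.28 (SE 0.11, unadjusted p = 0.0202). Upf2, a factor of nonsense-mediated decay, differed by 0.25 (SE 0.09, unadjusted p = 0.0209). Gemin8, of the complex that assembles spliceosomal particles, differed by 0.42, Wdr54, on chromosome 6, by 0.43 (0.37 without untreated replicate 2), and the meiotic recombination gene Mei4 by 1.75 (SE 0.78), which was 0.87 without untreated replicate 1, where no read was counted. Lower ones were the proteasome assembly gene Psmg3 (-0.46), the transcription factor Rfx1 (-0.27), Pdcd7 (-0.50) and Nat14 (-0.83). Cep85l on chromosome 10 was also lower (-0.38, or -0.36 without untreated replicate 1). Without untreated replicate 2 and ADI-PEG20 replicate 1, Rfx1 was at -0.18, Pdcd7 at -0.29 and Cep85l at -0.24. With library quality weights Nat14 was at -0.59. A further 6 lower genes, at -0.78 to -0.15, and 1 higher gene, Ttc19 (0.19), were apart in both states but outside the rule for naming genes. Gm16958 (1.56), Gm12272 (1.31) and Gm17088 (1.03, or 0.58 without untreated replicate 2) are annotated as antisense transcripts, and since the sources do not say whether counting used strand, their reads and those of the gene opposite cannot be told apart. With 8 reads added in place of 0.5, Gm16958 was at 0.84, Gm12272 at 0.67, Scarna3a at 0.81 and Mei4 at 0.93. Gm10232 (1.26), a processed pseudogene, and the small RNA Scarna3a (1.60), which were apart only with ADI-PEG20 and are named for their p, rest on 1 to 46 reads per library and may share reads with near-identical copies.

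**Figure D5:**
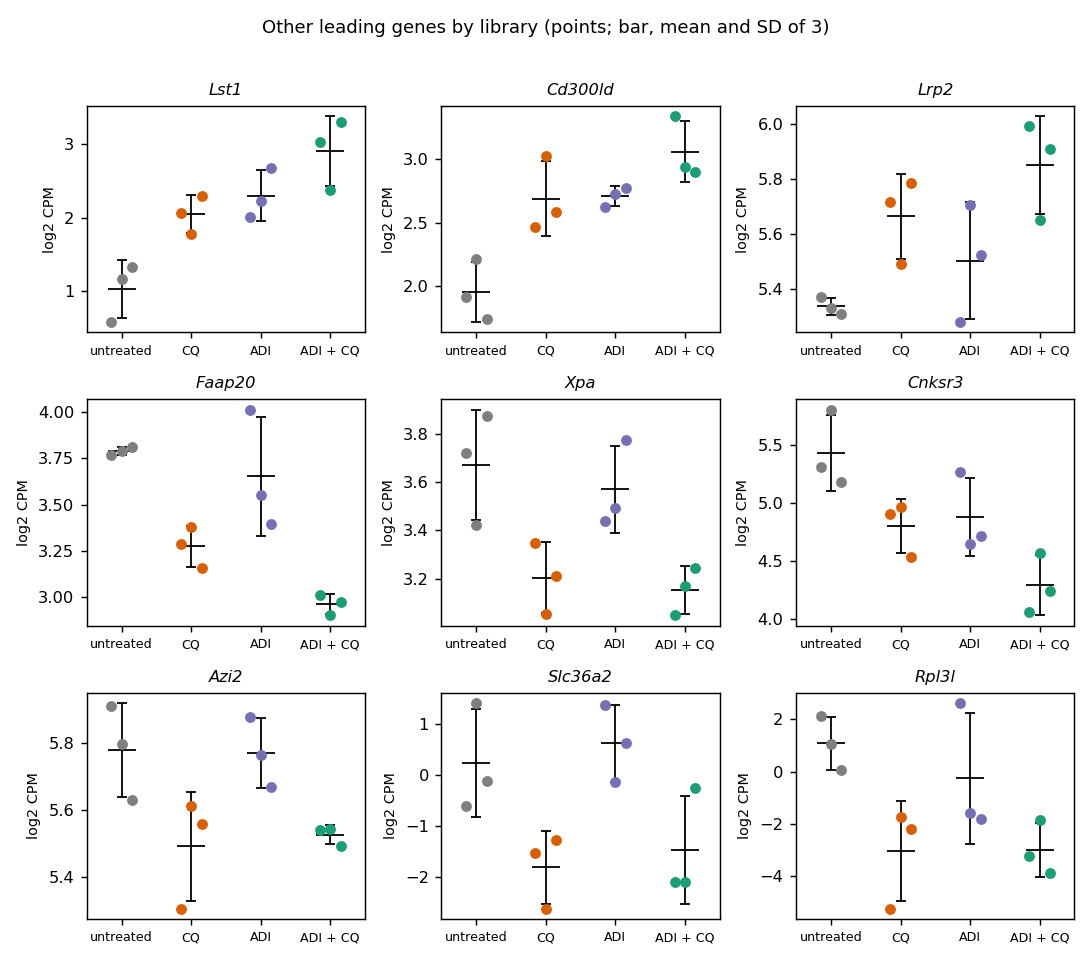
Log2 CPM (y axis) in the 3 libraries of each group (x axis; CQ, chloroquine; ADI, ADI-PEG20), with the mean and SD of 3, for 9 further genes. Faap20, Xpa and Azi2 have all 6 libraries with chloroquine below all 6 without, and Rpl3l spans from 0 reads (-5.23) to 2.62.

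Several lower genes with a small p and a difference above 1 log2 unit were scarce transcripts, and muscle and fat transcript was unequal between the libraries. Rpl3l, a ribosomal protein of striated muscle, was at 2.12, 1.04 and 0.07 log2 CPM untreated, -5.23, -1.72 and -2.18 with chloroquine, 2.62, -1.57 and -1.82 with ADI-PEG20, and -3.22, -1.85 and -3.87 with both, on 0 to 108 reads. The libraries were apart in both states, with a fitted difference of -3.42 (SE 0.89, unadjusted p = 0.0017) that depends on the offset and was -1.88 with 8 reads added in place of 0.5. Over the same libraries the mean of 21 skeletal muscle markers was 6.12, 2.17 and 4.64 untreated, 4.64, 4.07 and 4.88 with chloroquine, 6.75, 3.00 and 1.94 with ADI-PEG20, and 1.30, 2.29 and 2.54 with both. Without ADI-PEG20, untreated replicate 1 had the most Rpl3l and the most muscle, and untreated replicate 2 the second highest Rpl3l and the least muscle of its group. The ADI-PEG20 libraries had the same order for Rpl3l and muscle, and the libraries with both treatments did not. The muscle list itself had 2 of 21 higher, with medians of 0.36 without and -1.76 with ADI-PEG20. Over both states its median was -0.66, and 0.01 with 11 higher without ADI-PEG20 replicate 1; its part in the result was not tested.

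Slc36a2, a proton-coupled carrier of small amino acids listed among the adipocyte markers, was at -0.60, 1.42 and -0.11 log2 CPM untreated, -1.53, -2.62 and -1.27 with chloroquine, 1.37, -0.13 and 0.63 with ADI-PEG20, and -2.09, -2.09 and -0.25 with both, on 3 to 43 reads. It was apart in each state, with a difference of -2.07 (SE 0.52, unadjusted p = 0.00141), or -1.34 with 8 reads added. Of the 10 adipocyte markers 8 were lower and 6 lower in both states, with a median of -0.31; without ADI-PEG20 replicate 1 that median was 0.10 with 6 higher, and without ADI-PEG20 replicate 2 it was -0.60. The kinase Wnk2 ran from -1.43 to 2.53 (median 1.51) without and from -5.55 to 0.76 (median -1.18) with chloroquine, a difference of -2.90 (SE 0.82, unadjusted p = 0.00323), or -1.77 with 8 reads added. Fgf16, a growth factor of heart and brown fat, differed by -1.40 (SE 0.44, unadjusted p = 0.00647). Markers of endothelial cells were lower in 12 of 15 cases, 6 of them in both states and 0 higher in both, with a median of -0.10 and 0 at an unadjusted p under 0.05. That median was -0.01 with 7 higher without ADI-PEG20 replicate 3, and -0.21 without ADI-PEG20 replicate 2. The 4 mast cell genes measured, Kit, Mcpt4, Tpsb2 and Hdc, were each lower in both states, with a median of -0.37, or -0.22 without untreated replicate 3 and -0.59 without ADI-PEG20 plus chloroquine replicate 2.

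Several other lists had lopsided counts. Of 22 genes of G2 and mitosis, 21 were higher, but the median was 0.11, from 0.03 without and 0.24 with ADI-PEG20, 11 were higher in both states and 0 had an unadjusted p under 0.05. The median was 0.05 with 16 higher without ADI-PEG20 replicate 1, 0.07 with 14 higher without ADI-PEG20 plus chloroquine replicate 1, and 0.22 without untreated replicate 1. Ccne1, the cyclin that opens S phase, was higher by 0.32 (SE 0.13, unadjusted p = 0.0275). Of 32 cytosolic ribosomal proteins 30 were lower over both states, with a median of -0.08, yet 26 had opposite signs in the states and the medians were -0.28 and 0.14. Over both states the median was -0.01 with 14 higher without untreated replicate 1, -0.02 with 10 higher without chloroquine replicate 3, and -0.13 without ADI-PEG20 replicate 1. Its highest value over the alternatives tried was 0.10. Immediate early genes were lower in 21 of 25 cases, 7 of them in both states, with a median of -0.14 that was 0.04 with 15 higher without untreated replicate 2. Glycolysis genes were lower in 13 of 17 cases but 14 had opposite signs in the states. Their median of -0.11 was -0.01 without untreated replicate 2, and ran from -0.17 to 0.14 over the alternatives tried. Genes of G1 to S were higher in 17 of 22 cases, with a median of 0.10, or 0.00 without ADI-PEG20 replicate 1. Keratinocyte markers were lower in 9 of 12 cases, 7 of them in both states, and 0 had an unadjusted p under 0.05. Their median of -0.47 ran from -0.66 to -0.36 with each library left out, and up to -0.14 over the alternatives tried. All 6 natural killer markers measured were higher over both states together and 3 of them in both. Their median of 0.80 was 0.50 without untreated replicate 2, and 0.11 at the lowest of the alternatives tried. All 6 erythroid markers were higher over both, but each had opposite signs in the states, and the median of 0.63 was 0.16 without ADI-PEG20 plus chloroquine replicate 1. Of 10 mitochondrial transcripts 9 were higher with a median of 0.03, and 1 was higher with a median of -0.12 without ADI-PEG20 replicate 1.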

How the data were processed

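Per the labels' protocols, frozen tumor pieces gave the RNA and a kit depleted ribosomal RNA before libraries were made. Per the submitters' processing notes, the build was mm10 and the tools, given with no role or order, were edgeR and limma, the aligner STAR (2.5.1a), the quantifier Salmon (0.8.2), featureCounts (1.4.6-p5) of Subread, and bcl2fastq. The authors deposited 1 table of log2 CPM per gene and library. Its values were found to hold reads with 0.5 added, divided by a library size per column and taken to log2: below 2000 reads, 100% of them came out whole within 0.02. Of 16386 lines, 51 repeated a gene and were left out, leaving 16335 genes, the scarcest with 85 reads over the 12 libraries. With 15501998 to 28410940 reads per library, counting error is largest for the scarce genes, and SEs come from the spread between libraries.

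Each gene was fitted on these log2 CPM with limma 3.58.1 in R 4.3.3 (moderated with a trend), as chloroquine plus ADI-PEG20 over 12 libraries; every p printed for a gene is from this limma model, two-sided, with Benjamini-Hochberg adjustment over 16335 genes and a threshold of 0.05. A fit of the 4 group means gave the effect within each state and the difference between states. The code of the fit was run on simulated data, with noise independent between genes and with changes larger than most differences described here. That run does not bear on the smaller differences or on shifts shared by a library. Gene coordinates are from GENCODE M21 (GRCm38), matched by identifier for all 16335 genes, and promoters are from RefSeq (GRCm38.p6).

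Named genes were taken from the 12 with the smallest p in each direction among those with 1 sign in both states, up to 5 per list (smallest p with 1 sign, and any of opposite sign at an unadjusted p under 0.05), a set of lysosome, autophagy and uptake genes, Ass1 and Trp53, and up to 12 genes per direction with libraries apart in both states at an unadjusted p under 0.05. The members and the 48 gene lists (874 of 933 symbols measured) were chosen with earlier results of these data known, and no list test was made. Replicate numbers were not used as pairs in the main fit, and a fit with a replicate block is given below. Over 18 same-numbered pairs of libraries, the correlation of deviations from the group means had a median of 0.15 (-0.21 to 0.37). Over the 36 pairs of unlike number the median was -0.10 (-0.41 to 0.37). The alternatives tried were other weights, scalings, offsets, filters and designs, and each library left out. 1 gene of the uptake set is not reported here.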

Additional observations from a re-analysis of the deposited data

Results flagged for a closer look

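Of 86 groups of 6 values scanned for a library far from the others, 3 held one; chance gives about 1 in 20. Dclre1c was at 4.996 log2 CPM in ADI-PEG20 plus chloroquine replicate 3, with the other 5 libraries with chloroquine at 4.58 to 4.73. Tab1 was at 5.76 in untreated replicate 2, with the other 5 libraries without chloroquine at 5.22 to 5.29. The chromosome 10 median deviation was 0.40 in untreated replicate 1, against -0.07 to 0.02 in the others without chloroquine.

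For 83 genes (0.508% of those tested) all 3 libraries with chloroquine lay on 1 side of their controls without ADI-PEG20 and on the opposite side with it. This difference in direction was not tested as a group, and the 83 were not compared with the number that chance gives. Gene by gene, the test of the difference between states gave 0 genes at an adjusted p of 0.05 (limma) and 696 at an unadjusted p under 0.05.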

How the results depend on the processing

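The count of 0 genes at an adjusted p of 0.05 held for the pooled effect in all 26 alternatives (lowest adjusted p 0.909, limma), and for each state and for the difference between states wherever these were run. Fits without the ADI-PEG20 covariate and the mean of 2 states do not bear on the difference between states and were not run for it. Leaving out 1 library at a time, the unadjusted counts ran from 111 to 287 higher (without ADI-PEG20 plus chloroquine replicate 1 and untreated replicate 3) and from 137 to 332 lower (without ADI-PEG20 plus chloroquine replicate 1 and untreated replicate 1), and from 374 to 1399 for the difference between states (without ADI-PEG20 replicates 1 and 2). Genes apart in both states ran from 24 to 49 higher, 28 to 63 lower and 115 to 224 opposite, larger than with 3 against 3 because fewer libraries make it easier to be apart. Same-sign genes ran from 38.2% without untreated replicate 2 to 51.5% without untreated replicate 1. The stress list median ran from 0.11 to 0.27 and that of transporters from 0.15 to 0.23; without untreated replicates 1 and 2 together, chosen after seeing the data, they were 0.21 and 0.11.

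With only genes of a mean log2 CPM above 3, fewer genes were tested: 72 were higher, 82 lower (122 above a mean of 1) and 422 differed between states at an unadjusted p under 0.05; 4 higher, 10 lower and 47 opposite genes were apart. Same-sign shares were 41.8% there, 42.7% above a mean of 1, and 47.3% with library quality weights. Chosen after seeing the data, leaving out untreated replicate 2 and ADI-PEG20 replicate 1 together gave 65 higher, 73 lower and 283 opposite genes apart and 45.6% same-sign genes; leaving out untreated replicates 1 and 2 gave 135, 129 and 357, with 46.6% same-sign genes and 296 at an unadjusted p for the difference between states. A replicate block left 0 genes at an adjusted p of 0.05, with 219 higher, 227 lower and 926 differing between states unadjusted; 9 of 12 libraries correlated best with their own number, which is a hint from the data and no pairing by design. Of 6877 values of named genes over the alternatives, 28 changed sign after moving by more than the SE, and of 1274 list medians 5 moved by more than the spread between replicates. That spread was wide for some lists, so medians counted as unmoved could still change sign. Such medians ran from -1.34 to 0.01 for skeletal muscle, -0.26 to 0.39 for T cells and -0.60 to 0.10 for adipocytes. Depth limits scarce genes most: Rpl3l, Slc36a2, Wnk2, Mei4, Gm16958, Gm12272 and Scarna3a depended on the reads added, as given above.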
